A study of Mus musculus with 8 samples.

Results

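Ribosome-bound mRNA was compared with total mRNA in metaphase II (MII) oocytes, the ovulated eggs, of young mice, gene by gene and within each pool of oocytes. Of the 8 libraries of the series, 4 were used for this comparison, namely the HA and the input library of young pool 1 and of young pool 2. The HA library holds mRNA recovered with tagged ribosomes and the input library holds mRNA of the whole lysate. Members were all genes present in both the HA and the input table, which came to 8537 of the 10891 genes listed in either. There were 8898 genes with HA values and 10530 with input values.

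All mice were C57BL/6 females of the genotype RiboTagF/F;Zp3-Cre, in which Cre recombinase under the Zp3 promoter, active in growing oocytes, switches the ribosomal protein gene Rpl22 to a form with an HA tag. The young mice were 1 month old. The old mice, used here only as separate pools in which to look at the same genes, were retired breeders of 12 to 15 months with the same alleles. Both ages were primed with PMSG (5 IU) and given hCG (10 IU) 48 h later, and eggs were taken from the fallopian tubes after a further 13 h. Each pool combined 200 eggs, so a pool and not a mouse is the replicate. A share of 10% of each lysate became input and the remainder went to the HA immunoprecipitation, so the libraries of a pool come from the same cells. No immunoprecipitation from mice without the tag was analysed here, so how much RNA the beads carry without tagged ribosomes was not measured.

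Fully grown oocytes stop transcription, and the proteins needed for the meiotic divisions and the early embryo are made from stored maternal mRNA. Many stored mRNAs have short poly(A) tails and few ribosomes until meiosis resumes. Then sequence elements in the 3′-UTR, among them the cytoplasmic polyadenylation element (CPE) bound by CPEB1, direct tail lengthening and recruitment of ribosomes to some mRNAs, while others are released from ribosomes and lose their tails. MII eggs are held in metaphase by high CDK1 activity and cytostatic factor until fertilisation.

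The deposited values were CPM, reads on a gene scaled to library size, normalised by the authors separately for HA and input, and they resolved into whole reads in each library. The young libraries held 38276453 to 60052814 reads on genes, and 10 CPM corresponded to 380 to 774 reads. A translation efficiency (TE) per pool was taken as HA CPM over input CPM. Its log2 value, with 1 CPM added to each level, was expressed relative to the median gene of its pool and is called loading below. A loading of 0 is thus that of the median gene and a loading of 1 is 2-fold above it. The fraction of molecules on ribosomes cannot be read from it. HA and input CPM are not on 1 scale, and as deposited the median log2 ratio was -0.44. An HA value below its input value is thus not by itself a sign of low loading. Adding 1 CPM draws the ratio of genes with few reads toward 1, which lies above the ratio of the median gene, and the 854 genes of lowest input had a median loading of 0.63.

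Agreement between the young pools depended on the level of the mRNA. Across all 8537 genes, Spearman's rho between the loading in pool 1 and in pool 2 was 0.276, and the median absolute difference between the pools was 0.82. Among the 1938 genes with at least 100 CPM in young input (mean of both pools) rho was 0.608, and among the 317 genes with at least 500 CPM it was 0.763, with a median absolute difference of 0.33. These correlations are across genes, which share their libraries and are not independent replicates. Counting error alone gave a median SD of 0.0145 for the difference between pools at 500 CPM and above, far below the observed difference. Of the 854 genes above percentile 90 of loading in each pool, 195 (22.8%) were so in both pools, and for the 854 genes below percentile 10 the number was 175 (20.5%). In the plot of the pools, the cloud of abundant genes is elongated along the diagonal whereas that of scarce genes is nearly round.

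**Figure D1:**
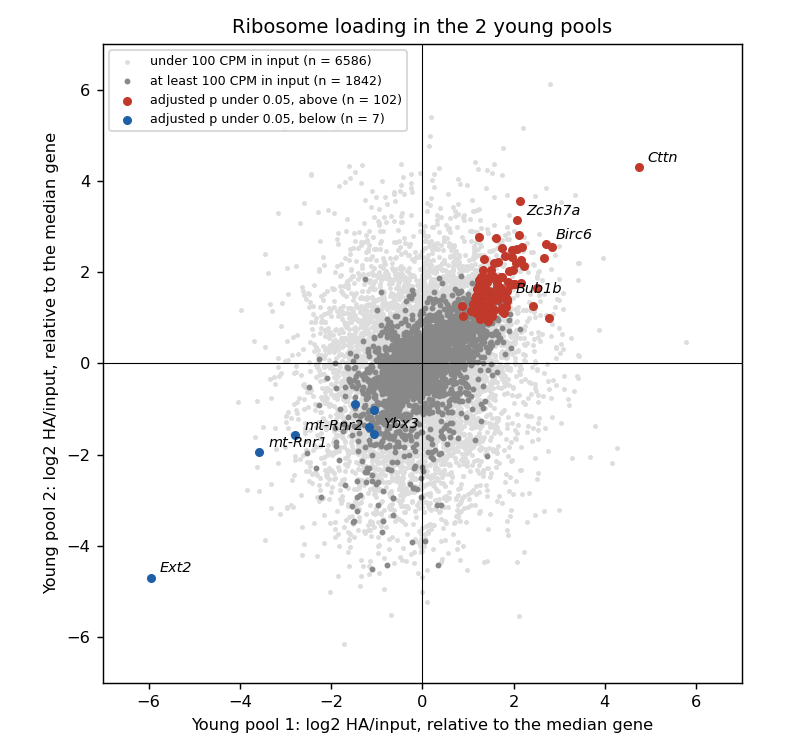
Loading (log2 HA over input, relative to the median gene of the pool) of each of the 8537 genes in young pool 1 (x axis) against young pool 2 (y axis). The 102 genes above (red) and 7 below (blue) the median gene at an adjusted p under 0.05 lie in the upper right and lower left quadrants, with Ext2 at -5.95 and -4.69 and Cttn at 4.74 and 4.30.

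In limma with Benjamini-Hochberg adjustment over all 8537 genes, 102 genes (1.19% of those tested) were loaded above the median gene and 7 (0.082%) below it at an adjusted p under 0.05. The loading of the 102 genes ranged from 0.96 to 4.52 with a median of 1.59, which is 3.01-fold above the median gene. Their median input level was 296 CPM against 29.1 CPM for all genes, so the test reached few scarce genes, and 58 of the 102 were among the 854 genes with the highest input. Without adjustment, 807 genes above and 567 below had a p under 0.05.

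These counts depended on the model, on the scale and on the pools used. The count was 0 in each direction when the mean-variance trend was taken on the ratio instead of the level or was left out, and also when the old pools were fitted together with the young. The edgeR quasi-likelihood test on the recovered reads called 1 gene above and 1 below, and DESeq2 called 442 above and 310 below. Without young pool 1, with the spread taken from the old pools, 0 genes were called in each direction, and without young pool 2 there were 0 above and 2 below. Without the block that pairs HA and input of a pool, 9 genes were called above and 1 below. With the deposited CPM taken as they stand, without setting the median gene to 0, the median of all genes was -0.44, and 24 genes lay above and 55 below. Directions below are relative to the median gene, and on that other scale a small positive loading changes sign. All 102 and 7 genes kept their side of 0 in every alternative in which they were tested. CPM, TE or loading is therefore given per pool for each gene described. A standard error printed with a mean loading is that of limma, in which the spread is shared across genes. It is not the spread between the 2 pools of that gene.

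The lowest loading of a called gene was that of Ext2, which encodes a glycosyltransferase of heparan sulfate synthesis (chromosome 2, 93661028 to 93822568, minus strand, GRCm38). Ext2 measured 877 and 833 CPM in the input libraries of pools 1 and 2 and 9.65 and 23.0 CPM in the HA libraries. Both HA values were far below both input values, and the TE was 0.0110 and 0.0276. The mean loading was -5.32 (standard error 0.41, n = 2 pools, adjusted p = 0.00327 in limma). Its annotated span overlaps 2 other genes, and counting used whole gene spans without strand.

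Of the other 6 low genes, 4 were RNAs of the mitochondrial genome. The ribosomal RNA mt-Rnr1, of the small subunit of the mitochondrial ribosome, stood at 16676 and 27497 CPM in input and at 1052 and 5313 CPM in HA. For mt-Rnr2, of the large subunit, input was 20713 and 37485 CPM and HA was 2259 and 9364 CPM. The loadings in pools 1 and 2 were -3.57 and -1.95 for mt-Rnr1 and -2.78 and -1.57 for mt-Rnr2. Their mean loadings were -2.76 ± 0.32 and -2.18 ± 0.26 (limma standard error, n = 2, adjusted p = 0.0132 and 0.0135 in limma). In each RNA the HA values of both pools lay below the input values of both pools.

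The mRNAs made inside mitochondria are translated by mitochondrial ribosomes, which hold no Rpl22. Of their 12 listed members, 0 were above the median gene in both pools and 10 were below it in both. The median loading of the list was -0.84, with -1.23 in pool 1 and -0.45 in pool 2, beside 0.00 in either pool for all genes. Past the threshold were mt-Co1, a subunit of cytochrome c oxidase (TE 0.359 and 0.368, loading -1.04, adjusted p = 0.0408 in limma), and mt-Cytb, the cytochrome b of complex III (TE 0.271 and 0.404, loading -1.18, adjusted p = 0.0368). mt-Nd1, a subunit of complex I, had a loading of -1.31 and -0.59 and did not pass (adjusted p = 0.0880). Summed over the list, HA came to 0.311 of input in pool 1 and 0.481 in pool 2, against 0.893 and 0.832 over all genes. RNA that cytosolic ribosomes do not translate was thus present in the HA libraries. The ratios are of separately scaled CPM and do not give the share of this RNA that was carried over.

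A further called gene on the low side was Ybx3, which encodes a cold-shock-domain protein that binds mRNA. It measured 1479.7 and 2345 CPM in input against 536 and 598 CPM in HA. Each HA value was below each input value, with a loading of -1.30 ± 0.23 (standard error, n = 2, adjusted p = 0.0368 in limma).

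On the high side, the 12 called genes with the highest mean loading among those with at least 10 CPM in input had loadings between 2.18 and 2.85. The top was taken by A330076H08Rik, annotated as a processed transcript without a coding sequence, with 79.5 and 59.8 CPM in input and 265 and 531 CPM in HA. Its span overlaps 3 other annotated genes, and the strand that gave its reads is not known. Next came E330009J07Rik, a protein-coding gene, with 278 and 560.1 CPM in input and 1491 and 2441 CPM in HA. For both genes the HA values exceeded the input values of both pools, and the loading of E330009J07Rik was 2.69 ± 0.22 (standard error, n = 2, adjusted p = 0.00327 in limma).

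Birc6, a giant inhibitor of apoptosis with ubiquitin-conjugating activity, had the closest loadings in the pools among these 12 genes, with a TE of 4.97 and 4.59. It ranked at percentile 99.3 of all genes in pool 1 and 97.7 in pool 2. Zc3h7a, which encodes a zinc finger protein, had a TE of 3.17 and 6.57, and Fgfr2, a receptor for fibroblast growth factors, had 4.78 and 3.72. The annotated span of Fgfr2 overlaps 69 other genes, so the source of its reads is uncertain. Api5, an inhibitor of apoptosis, had a TE of 3.28 and 5.32. The spans of Zc3h7a, Birc6 and Api5 overlap 2, 1 and 1 other annotated genes, and how many of their reads come from those was not tested.

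Copb1, a subunit of the COPI coat of Golgi vesicles, measured 221 and 257 CPM in input and 746 and 929 CPM in HA (loading 2.22 ± 0.25, adjusted p = 0.0132 in limma). Tmed9, a cargo receptor of the early secretory pathway, had a TE of 2.33 and 5.08. Lars2, the leucyl-tRNA synthetase of mitochondria, had 3.42 and 4.41, and Ghitm, a protein of the inner mitochondrial membrane, had 2.97 and 4.20. Polr2a, the largest subunit of RNA polymerase II, measured 36.7 and 45.5 CPM in input and 119 and 194 CPM in HA, and Gm33962, annotated as a transcribed pseudogene, had a TE of 3.60 and 3.28.

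Just 1 called gene on the high side lay under 10 CPM in input and is described because its loading was the highest of all called genes. Cttn, which encodes cortactin, a regulator of the actin cortex, measured 0.682 and 2.34 CPM in input and 32.7 and 48.1 CPM in HA. Its loading was 4.52 ± 0.83 (standard error, n = 2, adjusted p = 0.0409 in limma), and in the old pools it was -0.31 and 3.17.

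**Figure D2:**
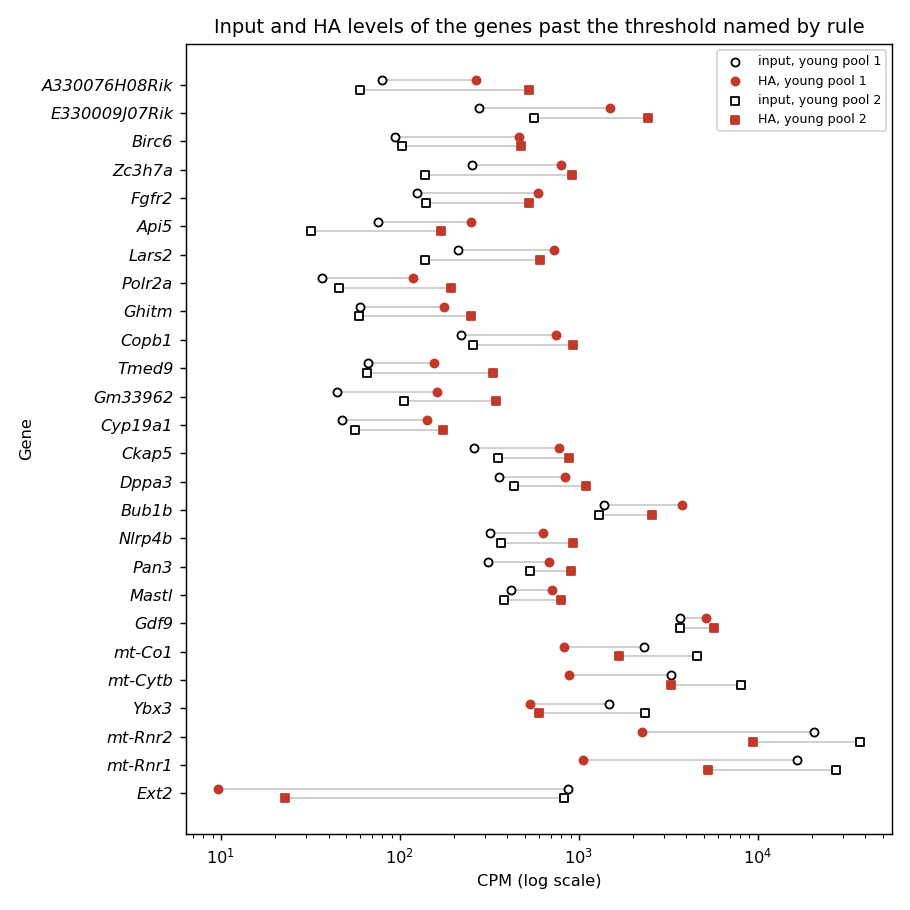
Levels in CPM (x axis, log scale) of genes past the threshold that were named by rule, in the input (open) and HA (red) libraries of young pool 1 (circles) and pool 2 (squares), ordered by mean loading. For the 20 genes at the top HA exceeds input in each pool, and for the 6 at the bottom it is below input in each pool.

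Because CPEs and the poly(A) signal govern cytoplasmic polyadenylation, the ends of the 3′-UTRs were searched for both, on the mRNA strand, in the annotated transcript (GENCODE M21, GRCm38) with the longest 3′-UTR. The CPE was searched as TTTTAT or TTTTAAT in the last 100 bases and the poly(A) signal as AATAAA or ATTAAA in the last 50, and the letters of both may overlap. Of the 20 genes past the threshold on the high side that were named by rule, 8 held CPE letters there, and of the 8 named after their values were seen, Cenpe and Dnajb4 did. The windows of 30 bases of the 8 genes named by rule are shown 5′ to 3′, with CPE and poly(A) signal letters in capitals. The counts below refer to such letters, for the poly(A) signal in the last 50 bases only. The signal marked in Fgfr2 lies outside those 50 bases and was not counted, and the counted signal of Ghitm lies outside its window.

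Bub1b, chr2:118641561-118641590, plus strand: tgtaTTTTATAATAAAatagtttttgttac
Ckap5, chr2:91620633-91620662, plus strand: agacTTTTATaAATAAAgtttgcattaact
Copb1, chr7:114215561-114215590, minus strand: gttaTTTTATaAATAAAttacttaatttta
Pan3, chr5:147548467-147548496, plus strand: tattTTTTAATAAAgaattgcagaAATAAA
Gdf9, chr11:53437862-53437891, plus strand: gtggTTTTATgtgacggaagAATAAActgt
Nlrp4b, chr7:10727106-10727135, plus strand: tgtgATTAAAgtaatTTTTATgaaagtata
Fgfr2, chr7:130162506-130162535, minus strand: taatTTTTATactgacAATAAAaatgtttc
Ghitm, chr14:37120140-37120169, minus strand: tttaTTTTAATggtagtattttacagtgtc

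The CPE letters began 27 bases before the annotated end in Bub1b, 28 in Ckap5 and Copb1, 26 in Pan3, 39 in Gdf9, 15 in Nlrp4b, 81 in Fgfr2 and 74 in Ghitm. In Bub1b, Ckap5 and Copb1 the CPE abuts the poly(A) signal or lies 1 base from it. On the low side, Ext2 and Ybx3 held a poly(A) signal and no CPE letters in the last 100 bases, as did Dppa3 on the high side. Their ends are given for comparison, with the poly(A) signal in capitals.

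Ext2, chr2:93661046-93661075, minus strand: atataaatctgtatgggaacgcATTAAAga
Ybx3, chr6:131364873-131364902, minus strand: gtgcagtaacaagttcctcaaaAATAAAat
Dppa3, chr6:122630232-122630261, plus strand: gttctaatttccagaaatttgtAATAAAag

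Of the 99 called genes on the high side with a 3′-UTR of at least 100 bases, 37 (37.4%) held CPE letters in the last 100 bases, against 1691 of 7759 (21.8%) of all genes and 451 of 1882 (24.0%) of those with at least 100 CPM. The poly(A) signal was found in 86.9% of the called genes, in 79.9% of all genes and in 82.7% of those with at least 100 CPM. Among the 1911 coding genes with at least 100 CPM, ordered by mean loading and divided into 5 bins of equal size, the CPE share was 18.1% in the lowest bin, 20.6%, 24.7% and 24.7% in the next, and 31.7% in the highest. The share for the poly(A) signal was 75.2% in the lowest and 87.9% in the highest bin. A match describes the annotated sequence and does not show that the site is used.

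Base composition moved with loading as well. The median GC content of the transcript was 51.2% in the lowest bin and 45.5% in the highest, and Spearman's rho between GC content and loading was -0.15 in pool 1 and -0.40 in pool 2 (1911 genes). Among transcripts at or below the median GC content of 47.4%, the CPE share was 29.4% (30 of 102) in the lowest and 31.6% (79 of 250) in the highest bin. Above it, the share was 13.8% (37 of 269) in the lowest and 31.8% (41 of 129) in the highest. In the bins between, from low to high loading, the share was 21.4%, 25.5% and 25.9% at lower GC content and 19.9%, 23.9% and 22.9% at higher. The difference between the outer bins was thus larger at higher GC content. At lower GC content the share also rose from the second to the highest bin. The contrast between the GC groups was not tested. Coding length was nearly the same in the outer bins, with medians of 2028 and 2077.5 bases, and the median 3′-UTR was 1551 bases in the lowest and 1288.5 in the highest bin.

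**Figure D3:**
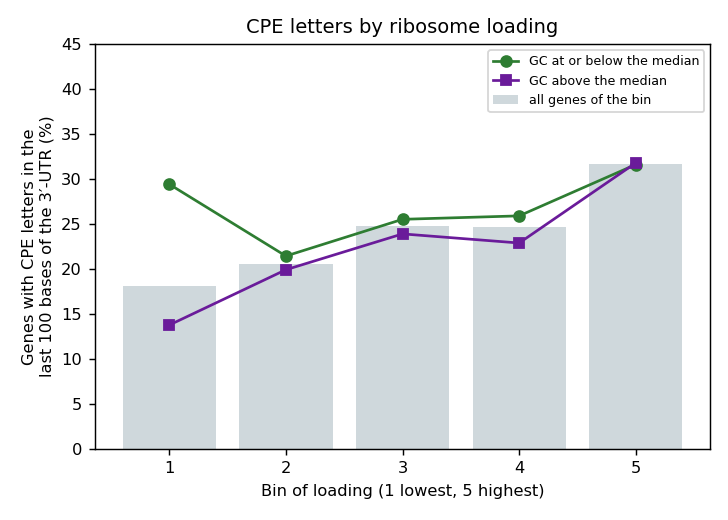
Share of genes (%, y axis) with CPE letters in the last 100 bases of the 3′-UTR, by bin of mean loading, 5 of equal size, (x axis) among coding genes with at least 100 CPM in young input. Bars give all genes of a bin and lines split them at the median GC content of the transcript, with 18.1% in the lowest and 31.7% in the highest bin for all genes.

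Genes were then described by role in 24 lists, each by the number of members above or below the median gene in both pools, beside 30.7% above and 30.7% below for all genes. The median input of the lists ranged from 8.03 to 1070 CPM, and the pools agreed better for abundant genes. The shares for all genes are therefore not matched to the lists for level. In the list of cyclin B, CDK1 and cytostatic factor genes, which drive and hold metaphase, 12 of 24 measured members were above the median gene in both pools and 2 below, with a median loading of 0.42. The called member was Mastl, the Greatwall kinase that restrains the phosphatase opposing CDK1, at 419 and 381 CPM in input and 712 and 795 CPM in HA (loading 1.33 ± 0.24, n = 2, adjusted p = 0.0405 in limma). Each HA value exceeded each input value.

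Ccnb1, the main cyclin B of the oocyte, had a TE of 1.50 and 2.12 (percentiles 83.5 and 89.5; loading 1.25, adjusted p = 0.0730 in limma). Ccnb2, its paralog, differed between the pools, with a TE of 0.641 and 2.29. Mos, the kinase of the cytostatic factor pathway, had 1.58 and 0.896, Fbxo43, the inhibitor of the anaphase-promoting complex that acts in cytostatic arrest, had 1.18 and 1.03, and Wee2, the kinase that inhibits CDK1, had 0.800 and 0.739. Cdk1 itself was scarce, at 12.0 and 5.28 CPM in input, and its loading was 0.05 and 2.21.

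Among the 36 measured genes of the anaphase-promoting complex and the spindle checkpoint, 18 were above the median gene in both pools and 7 below, with a median loading of 0.44. Bub1b, which encodes the checkpoint protein BubR1, was called, with 1388 and 1291 CPM in input and 3773 and 2571 CPM in HA (loading 1.64 ± 0.20, n = 2, adjusted p = 0.0168 in limma). Anapc1, the scaffold subunit of the complex, was also called, with a TE of 2.34 and 2.15 (adjusted p = 0.0457). Cdc20, the activator of the complex, had a TE of 1.58 and 2.37 and did not pass (adjusted p = 0.216). The lowest member with at least 10 CPM was Zw10, a kinetochore protein, with loadings of -1.71 and -0.41.

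The list of spindle and kinetochore genes had the highest median of the 24 lists, at 0.65 (0.68 in pool 1 and 0.85 in pool 2). Of its 43 measured members, 30 (69.8%) were above the median gene in both pools and 6 below. Past the threshold were 3 of them. Ckap5, a microtubule polymerase of the spindle poles, measured 259 and 352 CPM in input and 774 and 883 CPM in HA (loading 1.87 ± 0.24, n = 2, adjusted p = 0.0190 in limma). Kif23, a kinesin of the central spindle, had a TE of 1.71 and 2.32, and Cenpe, a kinesin of the kinetochore, had 1.76 and 1.78 (adjusted p = 0.0314 and 0.0325).

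Other members of that list varied more between the pools. Kif11, the kinesin that separates spindle poles, had a TE of 2.11 and 1.17, and the spindle kinase Aurka had 1.18 and 0.771. The lowest was Tubg1, the gamma-tubulin that nucleates microtubules, whose loading was -0.35 in pool 1 and -3.13 in pool 2. None of these 3 passed (adjusted p = 0.198, 0.678 and 0.403 in limma).

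The subcortical maternal complex and its NLRP proteins support the first cleavages. Of 16 measured members, 13 (81.3%) were above the median gene in both pools and 1, Ooep, was below in both, and the median loading was 0.55. Past the threshold were Nlrp4b, at 319 and 369 CPM in input and 633 and 933 CPM in HA, and Nlrp14, with a TE of 1.37 and 1.79 (loading 1.58 and 1.07, adjusted p = 0.0314 and 0.0466 in limma). The core members Tle6 and Padi6 lay close to the median gene, with loadings of 0.02 and -0.06 and of 0.17 and 0.01, and Ooep had -0.06 and -0.74. The Nlrp4 and Nlrp9 genes are families of near-identical copies, so reads may have been split or lost between them.

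Of the genes for oocyte-secreted factors and receptors, 7 of 12 were above the median gene in both pools and 3 below. Gdf9, the growth factor by which the oocyte acts on its follicle, was abundant at 3699 and 3691 CPM in input and 5131 and 5671 CPM in HA. Every HA value exceeded every input value, and Gdf9 was called with a loading of 0.96 ± 0.17 (n = 2, adjusted p = 0.0402 in limma), the smallest of the 102. Its partner Bmp15 had a TE of 1.07 and 1.02 (adjusted p = 0.259). The receptor gene Igf1r was the lowest member, at loadings of -1.65 and -1.89.

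The egg coat genes differed among themselves. Zp1, a zona pellucida glycoprotein, had a TE of 0.438 and 0.419 (percentiles 22.3 and 25.6), Zp2 had 0.735 and 1.35, and Zp3 had 0.467 and 0.823. Astl, which encodes ovastacin, the protease that cleaves ZP2 after fertilisation, had 1.82 and 2.29. None of the 9 measured members passed the test, and 2 were above and 3 below the median gene in both pools.

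Genes of DNA methylation and egg chromatin held called members on both sides, 2 above and 1 below among 32. Dppa3, whose protein shields maternal DNA methylation in the zygote, measured 359 and 435 CPM in input and 842 and 1094 CPM in HA (loading 1.70 ± 0.23, n = 2, adjusted p = 0.0190 in limma). Slbp, which binds the stem-loop of histone mRNAs, had a TE of 2.48 and 2.34 (adjusted p = 0.0190). Dnmt1, the maintenance methyltransferase, stood at 1.14 and 1.15, the histone chaperone gene Npm2 at 0.415 and 0.418 and the oocyte linker histone H1foo at 1.22 and 0.604. These last 3 did not pass (adjusted p = 0.147, 0.302 and 0.757). The 16 measured oocyte transcription factors included 1 called gene, Sall4, with a TE of 2.04 and 1.43 (adjusted p = 0.0450). At their ends were Obox7, with loadings of 1.47 and 1.51, and Foxr1, with -1.15 and -3.45, and Obox5 had 1.03 and 1.11.

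**Figure D4:**
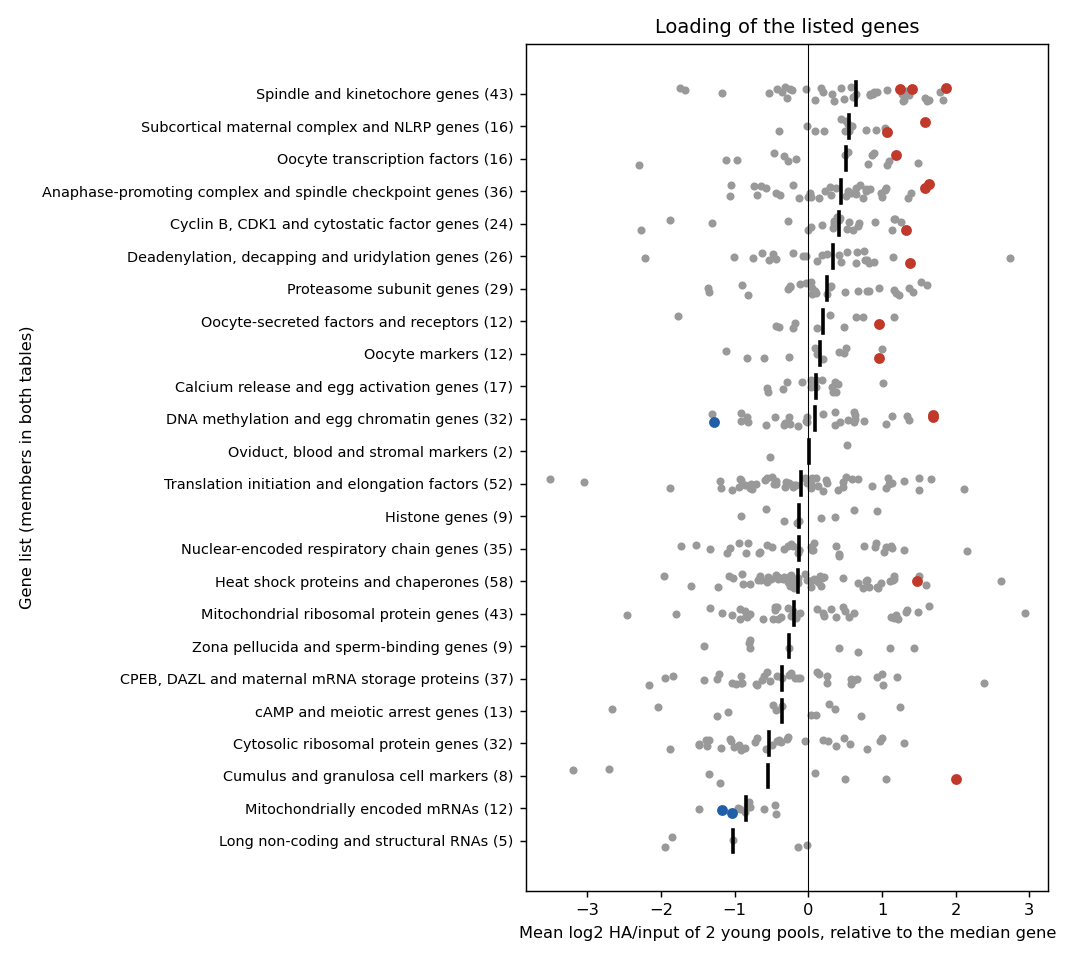
Mean loading of 2 young pools (x axis, log2 relative to the median gene) for each member of the 24 gene lists (y axis, ordered by median, members in both tables in brackets), with the median as a bar and called genes in red (above) or blue (below). Spindle and kinetochore genes have the highest median (0.65) and the long non-coding RNAs, with 5 members, the lowest (-1.02), followed by the mitochondrially encoded mRNAs (-0.84).

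The proteins of the CPEB, DAZL and mRNA storage list bind, mask or polyadenylate maternal mRNA. Of its 37 measured members, 20 (54.1%) were below the median gene in both pools and 8 above, with a median of -0.35 and 0 members called. The medians of the list in the old pools were 0.00 and -0.02. Ybx2, which encodes the abundant mRNA-masking protein MSY2, measured 242 and 196 CPM in input and 99.5 and 12.4 CPM in HA. All HA values were below the input values, but the TE differed between pools (0.411 and 0.0632) and the loading of -2.16 did not pass (adjusted p = 0.128 in limma). Pabpc1l, the poly(A)-binding protein of the oocyte, had a TE of 0.294 and 0.514.

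Within the same list, Dazl, an RNA-binding protein that activates translation in the oocyte, lay on the other side with a TE of 1.26 and 1.76 (percentiles 76.8 and 85.2, adjusted p = 0.0941 in limma). Zar1, which binds and stabilises maternal mRNA, had 0.935 and 1.33. In the list of deadenylation, decapping and uridylation genes, which act in mRNA removal, 12 of 26 were above in both pools and 7 below. Pan3, of the PAN2-PAN3 deadenylase, was called, with 309.9 and 533 CPM in input and 685 and 908 CPM in HA (loading 1.37 ± 0.24, n = 2, adjusted p = 0.0377). Btg4, the adaptor of the CCR4-NOT deadenylase in MII eggs, had a TE of 0.841 and 1.17, and the lowest member was Tob1, with loadings of -0.56 and -3.87.

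Of 32 cytosolic ribosomal protein genes in both tables, 18 (56.3%) were below in both pools and 5 above, with a median loading of -0.54, and 33 further ones were listed in the input table only. Summed over the 32, HA was 0.405 of input in pool 1 and 0.620 in pool 2, against 0.893 and 0.832 over all genes. Their levels were low, at 12 of 32 with at least 10 CPM, and Rpl22, the gene that carries the tag, measured 7.98 and 8.65 CPM in input and 7.16 and 7.67 CPM in HA, near the median gene in both pools.

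Translation factors were spread widely, with 14 of 52 above and 19 below in both pools and a median of -0.10. Eif3g, a subunit of the initiation factor eIF3, had the lowest loadings of the list at -2.02 and -5.00 (adjusted p = 0.107 in limma). Eif2a, an initiation factor for alternative start sites, had the highest among members with at least 10 CPM, at 1.84 and 1.50, and Eif4a1, the initiation helicase, had 2.08 and 0.93. None of the 52 passed the test.

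Genes of mitochondrial ribosomes made from nuclear DNA had 11 of 43 members above and 17 below in both pools, and the nuclear-encoded respiratory chain had 10 of 35 above and 12 below. Their medians were -0.20 and -0.13, with 0 members called in either. Proteasome subunit genes were above in both pools in 13 of 29 and below in 3 (median 0.26), but their medians in the old pools were -0.21 and -0.26. Heat shock and chaperone genes were evenly divided, 16 of 58 on each side, with 1 called member, Dnajb4, a cytosolic co-chaperone (TE 1.77 and 2.47, adjusted p = 0.0314 in limma). Histone genes gave 3 of 9 on each side, and Actb, the cytoskeletal actin often used as a reference gene, had loadings of -0.35 and -1.92.

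Genes that raise and read the calcium signal of fertilisation had 4 of 17 members on each side, and those of cAMP signalling and meiotic arrest had 3 of 13 above and 7 below. Itpr1, the calcium release channel of the egg, had a TE of 1.78 and 1.29. Adcy9, an adenylyl cyclase, had the lowest loadings of the arrest list at -3.17 and -2.17, and Prkar1a, a regulatory subunit of protein kinase A, had the highest at 1.16 and 1.33. None passed the test.

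RNAs known as non-coding were mainly absent from one or both tables, with 5 of 46 in both, 3 of them below the median gene in both pools and 0 above. Pvt1 had a TE of 0.397 and 0.0742 and Tug1 had 0.484 and 1.11. By annotation, the 253 genes of long non-coding RNA had a median loading of -0.47 and the 7949 protein-coding genes outside the mitochondrial genome of -0.03. Called genes numbered 1 above and 0 below among the former and 100 above and 3 below among the latter.

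The libraries were checked against markers of oocytes and of other cells. Of 13 oocyte markers, 12 were in both tables, and their summed level was 12392 and 12152 CPM in input and 13494 and 13276 CPM in HA. Of 28 markers of cumulus and granulosa cells, which surround the egg and hold no Zp3-Cre, 8 were in both tables, 7 in the input table only and 13 in neither. The sum of the 8 was 488 and 476 CPM in input and 472 and 436 CPM in HA. In bulk pools such a level does not tell the number of cumulus cells from the RNA of each cell.

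Members of the cumulus list moved in both directions. Cyp19a1, the aromatase of granulosa cells, measured 47.4 and 56.1 CPM in input and 142 and 174 CPM in HA and was called high (loading 2.01 ± 0.39, n = 2, adjusted p = 0.0470 in limma). Hsd3b1, a steroid dehydrogenase, had loadings of -3.58 and -2.80. The part of other cells in either value was not tested. Of 18 markers of oviduct, blood and stroma, 2 were in both tables.

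Genes listed in 1 table only could not be given a loading. There were 1993 in the input table only, of which 182 had a mean of at least 10 CPM in young input and 0 had 50 CPM. The most abundant were Kcng4 (33.0 and 62.3 CPM), Ctsl (14.8 and 79.8 CPM) and Acbd6 (41.1 and 32.6 CPM). There were 361 genes in the HA table only, 13 of them with at least 10 CPM, and the most abundant, Rpain, differed between the pools (6.86 and 31.0 CPM). All 8898 genes of the HA table had at least 1 CPM in 2 HA libraries of either age when CPM is computed from the recovered reads without TMM, so the poorest loaded mRNAs may be missing from the low side.

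The old pools share no library with the young pools and were used to look at the same genes. Of the 102 genes called high in young pools, 100 (98.0%) were above the median gene in both old pools, against 29.3% of all genes and 51.0% of genes with at least 100 CPM in young input. Their median loading was 1.47 and 2.26 in the old pools and 1.59 in the young. Of the 7 genes called low, 5 (71.4%) were below in both old pools, against 18.1% of genes with at least 100 CPM. Ybx3, at 0.14 and -0.70, was among the exceptions. Within the 1938 genes with at least 100 CPM, Spearman's rho between the mean loading of the young and of the old pools was 0.675, across genes.

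In a direct test of old against young loading, limma called 0 of 8537 genes (smallest adjusted p 0.740), and the edgeR quasi-likelihood test gave 0 as well. Without adjustment, limma gave a p under 0.05 to 284 genes with higher and 258 with lower loading in the old pools. The mitochondrial RNAs mt-Rnr1 and mt-Rnr2 had lower loadings in the old pools, at -4.62 and -4.71 and at -4.58 and -3.85, than in either young pool. Ext2 had higher loadings in the old pools, at -1.07 and -3.19, than in either young pool.

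**Figure D5:**
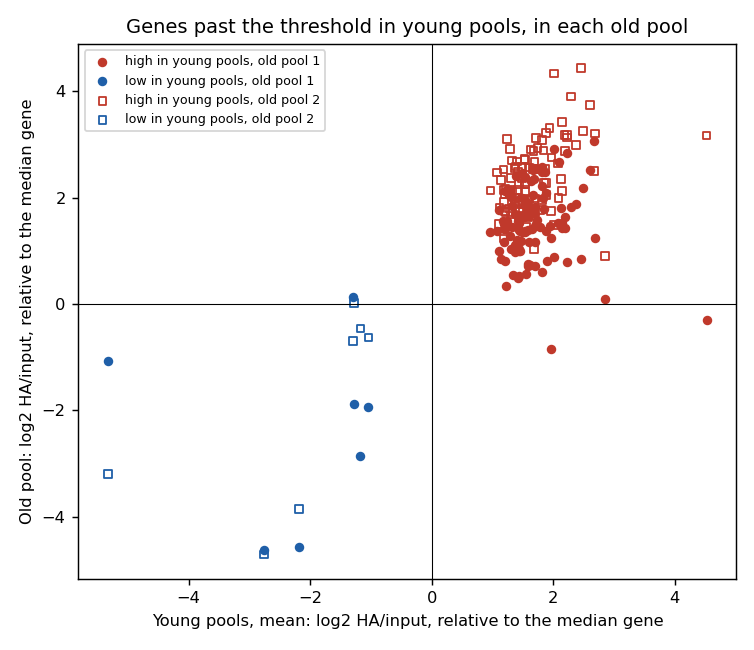
Loading in each old pool (y axis) of the 109 genes past the threshold in young pools, against their mean loading in young pools (x axis), both log2 relative to the median gene. Of the 102 genes high in young pools (red), 100 lie above 0 in both old pool 1 (filled circles) and old pool 2 (open squares).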

How the data were processed

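Oocyte RNA was amplified by the authors with random and poly(T) primers and sequenced as single reads. The authors trimmed reads with Trimmomatic 0.36, aligned them with HISAT2 to GRCm38 (mm10) and counted them with HTSeq on GENCODE M11 genes, introns included and without strand. The deposited signal values are CPM after their TMM normalization, done separately for HA and input, so levels are not on 1 scale between the tables and loading was set relative to the median gene. Per-sample columns left out numbered 0. Genes had been filtered at a stated 10 CPM in 2 or more samples, but all 8898 and 10530 genes of the HA and input tables reach 1 CPM in 2 libraries when CPM is computed from the recovered reads without TMM, and 8726 and 10480 reach 1 CPM on the deposited scale.

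Values were whole multiples of 1 read (100% within 0.01), so reads were recovered. Intervals and floors would cover counting error only, since reads carry no molecular identifiers. The labels name no batch.

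Loading was tested two-sided with limma (lmFit, eBayes with trend on the mean log2 level) over the 4 young libraries with the pool as a block, and Benjamini-Hochberg adjustment over 8537 genes. HA and input of a pool are paired because they come from the same lysate. The deviations of the same-numbered young HA and input libraries correlated at r = 0.107 across genes. With 2 pools, the spread is shared across genes. Read-based tests used edgeR and DESeq2. A total of 8516 genes (99.8%) matched GENCODE M21, whose transcripts gave the sequence features.

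Members and lists were chosen with earlier results of these data known. Named genes were 34 anchor genes of oocyte biology (32 in both tables), up to 12 called genes at each end with at least 10 CPM in input, the highest and lowest member of each list, and the most abundant genes of 1 table. Anapc1, Kif23, Cenpe, Nlrp14, Slbp, Sall4, Dnajb4 and Cttn were added after their values were seen. The values of 1 called gene on the low side are not reported here, and it stays in the counts. Versions were limma 3.58.1, DESeq2 1.42.0 and edgeR 4.0.16 in R 4.3.3, and pandas 2.3.3 and matplotlib 3.10.9 in Python 3.11.15.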

Additional observations from a re-analysis of the deposited data

How the results depend on the processing

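The main counts were 102 genes above and 7 below the median gene. With a pseudocount of 5 CPM they were 124 and 35, with at least 10 CPM in young input 153 and 25, and with at least 10 CPM in input and HA 193 and 35. Without the replicate block that pairs HA and input of a pool they were 9 and 1, and without centring at the median gene 24 and 55. With TMM computed jointly they were 224 and 56. All 4 pools in 1 fit gave 0 and 0, as did eBayes without trend and, in an alternative chosen after seeing the data, the trend taken on the ratio. The edgeR quasi-likelihood test gave 1 and 1 and DESeq2 gave 442 and 310. Leaving out young replicate 1 or 2, with the spread taken from the old pools, gave 0 to 0 genes above and 0 to 2 below. The cause of these shifts was not tested. Of 405 values of the 27 named called genes under alternatives, 405 kept their direction and 217 stayed past the threshold.

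For old against young loading, the count of 0 held under each alternative except the replicate block, with 2 genes (mt-Rnr1 and mt-Rnr2). Old and young pools share only a number, and the deviations in loading of same-numbered pools correlated at r = 0.0108, so these numbers do not pair the pools. Leaving out each pool in turn gave 0 to 0 genes.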
